A study of Mus musculus with 12 samples.

Results

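The genes described here belong to the unfolded protein response of the endoplasmic reticulum (ER), measured in murine hip cartilage before and 4 h post injury. They were taken by symbol, and every probe on the array that carries the symbol Hspa5, Hsp90b1, Xbp1, Dnajb9, Herpud1, Pdia4, Calr, Creld2, Sdf2l1 or Atf6 was used. These 10 genes have 15 probes among the 45281 of the array, and 13 of these probes, from 9 genes, are among the 21004 probes with a normalized value. Total RNA was hybridized to Illumina mouse BeadChips, on which bead-bound probes report the abundance of single transcripts. The 12 arrays fall into 4 groups of 3. WT control and WT injured hips came from mice labelled WT, and Mapk9 KO control and Mapk9 KO injured hips from mice labelled MAPK9 KO, whose targeted gene encodes a c-Jun N-terminal kinase. All mice were labelled with the C57BL6 background and an age of 4 to 6 weeks. Control hips were snap-frozen after avulsion of the femoral epiphysis, injured hips were kept in serum-free culture for 4 h, and each replicate pooled the hips of several mice. Injury and culture therefore cannot be told apart, and in pooled tissue a change in the number of cells of a type cannot be told apart from a change of RNA per cell.

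Secreted and membrane proteins fold in the ER, and cells that export large amounts of matrix, such as chondrocytes with their collagen and aggrecan, load this compartment heavily. When unfolded proteins accumulate there, the kinase and nuclease IRE1 (gene Ern1) splices the Xbp1 message, the kinase PERK (gene Eif2ak3) slows translation and favours ATF4, and the membrane protein ATF6 is cleaved to a transcription factor. Their targets encode chaperones, disulfide isomerases and parts of the machinery that removes misfolded proteins.

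Arrays of hip tissue also carry RNA of neighbouring cells, and several libraries differ in this respect. Between 16930 and 18969 probes were detected per array (detection p under 0.05), and array medians after normalization lay between 7.55 and 7.70 on the log2 scale. The mean log2 signal of 10 measured chondrocyte markers of 12 listed, all detected, was 10.61 to 11.32 in WT control and 12.38 to 12.62 in WT injured hips. Aggrecan (Acan) was 2.03 higher on the log2 scale post injury in WT (limma adjusted p = 0.00444) and the cartilage factor Sox9 1.19 higher (limma adjusted p = 0.0021), while Col2a1, the main cartilage collagen, differed by 0.54 (limma adjusted p = 0.15). The mean of 12 skeletal muscle markers ran from 10.73 to 12.54 in WT control and from 7.89 to 9.97 in WT injured hips. In Mapk9 KO the chondrocyte mean went from a range of 10.51 to 11.16 to one of 12.46 to 12.65, and the muscle mean from 12.59 to 12.99 to 8.41 to 9.64. By more than 2-fold with an adjusted p under 0.05, 7 of the 10 chondrocyte markers were upregulated in each genotype (median changes 1.22 and 1.73). Of the 12 muscle markers 10 were downregulated in WT and 12 in Mapk9 KO (-2.73 and -3.89). Of the measured adipocyte markers 2 of 4 were downregulated in WT and 3 of 4 in Mapk9 KO (median changes -1.72 and -2.19), and of those of osteoblasts and osteoclasts 3 of 6 and 4 of 6 (-0.92 and -1.28). Of all probes 7.55% were upregulated and 7.14% downregulated in WT, and 9.59% and 9.14% in Mapk9 KO. Of 4 measured markers of B and plasma cells, a secretory type that uses this response heavily, 1 was upregulated in each genotype, with median changes of 0.74 in WT and 0.15 in Mapk9 KO and mean log2 signals per array of 8.55 to 9.17 in WT control, 9.29 to 9.45 in WT injured, 8.77 to 9.03 in Mapk9 KO control and 8.90 to 9.31 in Mapk9 KO injured hips. For 9 macrophage and neutrophil markers the median changes were 0.54 and 0.05, for 7 endothelial markers 0.28 and -0.06, and for 5 erythroid markers 0.21 and -0.17. The part of these shifts in the changes given below was not tested. The brighter of the measured Mapk9 probes was 1.57 lower on the log2 scale in Mapk9 KO control than in WT control hips (standard error 0.21, limma adjusted p = 0.0151). It was still detected on all Mapk9 KO arrays, with means of 9.19 in control and 8.74 in injured hips. The dimmer was detected on all 3 WT control arrays, on 1 of 3 WT injured arrays and on no Mapk9 KO array.

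The best known DNA element of this response is the ER stress response element (ERSE), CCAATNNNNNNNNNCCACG, and its shorter relative ERSE-II holds ATTGG, any 1 letter and CCACG. RefSeq promoter windows of GRCm38.p6, from 250 bases before to 50 bases after each annotated start, were matched by symbol for 9 of the 10 genes, all but Atf6. An exact ERSE on either strand lay in 4 of these 9 windows (44.4%), those of Hspa5, Hsp90b1, Calr and Creld2, and in 39 of all 32851 windows (0.119%). ERSE-II lay in the window of Herpud1 and in 12 of all windows (0.0365%). Both elements are known from genes of this response, so these shares describe the windows and are no test of enrichment. The element TGACGTGG, known as the UPRE, ends with the CCACG block read on the opposite strand, and it was in 0 of the 9 and in 0.676% of all windows. The stretches that hold these elements are shown 5′ to 3′ in the direction of the gene, with the matched letters in capitals. A capital run that starts with CGTGG is an ERSE read on the opposite strand.
Hspa5, chr2:34771990-34772078, plus strand: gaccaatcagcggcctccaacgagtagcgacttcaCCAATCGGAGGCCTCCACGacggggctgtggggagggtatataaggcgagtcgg
Hsp90b1, chr10:86705498-86705691, minus strand: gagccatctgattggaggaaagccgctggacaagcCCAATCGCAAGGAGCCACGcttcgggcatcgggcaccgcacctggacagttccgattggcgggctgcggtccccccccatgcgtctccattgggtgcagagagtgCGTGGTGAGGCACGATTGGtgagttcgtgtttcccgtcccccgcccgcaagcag
Calr, chr8:84847040-84847128, minus strand: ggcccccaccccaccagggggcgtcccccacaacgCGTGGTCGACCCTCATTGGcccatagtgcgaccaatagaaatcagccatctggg
Creld2, chr15:88819485-88819573, plus strand: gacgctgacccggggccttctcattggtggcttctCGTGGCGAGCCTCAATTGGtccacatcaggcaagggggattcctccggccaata
Herpud1, chr8:94386342-94386422, plus strand: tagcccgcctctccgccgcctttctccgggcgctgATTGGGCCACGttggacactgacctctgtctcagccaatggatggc

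Counted from the annotated start as position 0, the ERSE of Hspa5 began at -65, that of Creld2 at -126, that of Calr at -162 and those of Hsp90b1 at -212 and -107. The ERSE-II of Herpud1 began at -52. With 1 letter off, which was looked for after the exact matches had been seen, ERSE was also found in the windows of Pdia4 and Herpud1 and at a further place in that of Hsp90b1. Windows with an exact match or one with 1 letter off made up 1.5% of all windows. No exact or near match was in the windows of Xbp1, Dnajb9 and Sdf2l1, which says only that these letters are not there. A match describes the letters of the window and not the binding of a factor.

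**Figure D1:**
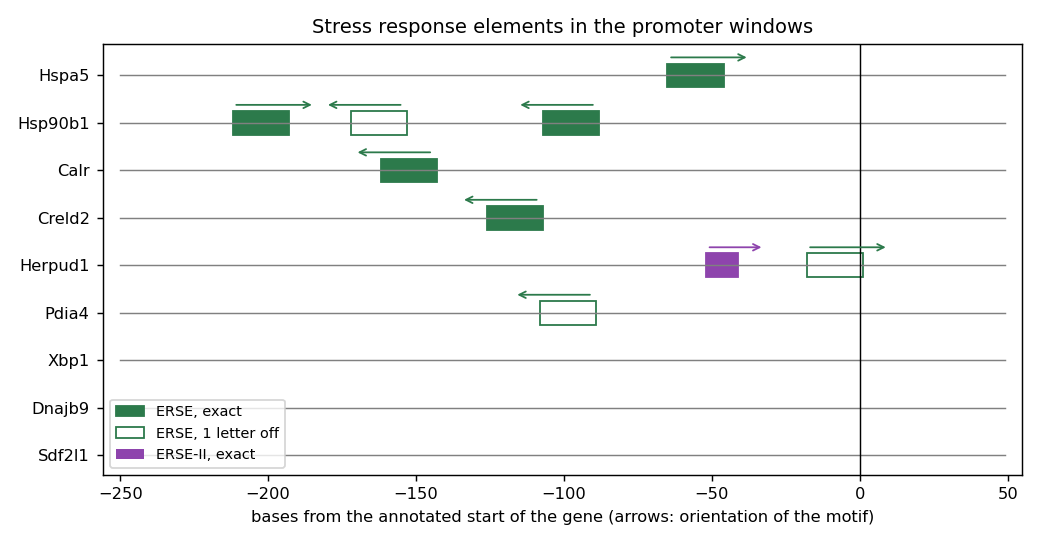
Position of exact ERSE and ERSE-II matches (filled) and of ERSE matches with 1 letter off (open) in the promoter windows of 9 genes, with distance from the annotated start in bases on the horizontal axis and arrows for the orientation. Exact ERSE matches lie at -65 in Hspa5, at -212 and -107 in Hsp90b1, at -162 in Calr and at -126 in Creld2.

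Injury to cartilage was followed by higher signals for 5 of the 9 measured genes in both genotypes. Herpud1, Dnajb9, Xbp1, Creld2 and Sdf2l1 passed an adjusted p under 0.05 in WT and in Mapk9 KO, all upward, whereas Hsp90b1, Calr, Pdia4 and Atf6 did not. Herpud1 and Dnajb9 alone also passed the 2-fold limit. In WT, 3 of the 13 probes passed both limits, a change of more than 2-fold together with an adjusted p under 0.05, and all 3 were upregulated. By the same rule 14.7% of all probes were called, 7.55% upregulated and 7.14% downregulated. The 3 include Dnajb9 probe 2, which no WT control array detected and which was at least 1.99-fold higher, so its 2-fold call rests on control values at background. By adjusted p alone 8 of the 13 probes rose and 0 fell, beside 25.3% of all probes, of which 12.6% rose and 12.7% fell. In Mapk9 KO, 4 of the 13 probes were upregulated by both limits and 0 downregulated, beside 18.7% of all probes (9.59% up, 9.14% down). By adjusted p alone 8 rose and 0 fell, beside 38.3% (19% up, 19.3% down). At an unadjusted p under 0.05, 9 were higher and 0 lower in WT, beside 18% and 19% of all probes, and 8 were higher and 1, that of Pdia4, lower in Mapk9 KO, beside 23% and 23.9%. By the methods' t-test with adjustment 3 rose in WT, beside 6.37% of all probes, and 6 in Mapk9 KO, beside 13.7%, and 0 fell. The median change of the 13 probes was 0.74 in WT and 0.60 in Mapk9 KO on the log2 scale, and that of all probes -0.02 in both. The test was limma on the log2 values, and p-values were adjusted over all 21004 probes by the method of Benjamini and Hochberg. When single arrays were left out, 4 to 6 of the 13 probes rose by adjusted p in WT and 6 to 8 in Mapk9 KO, and 0 fell.

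**Figure D2:**
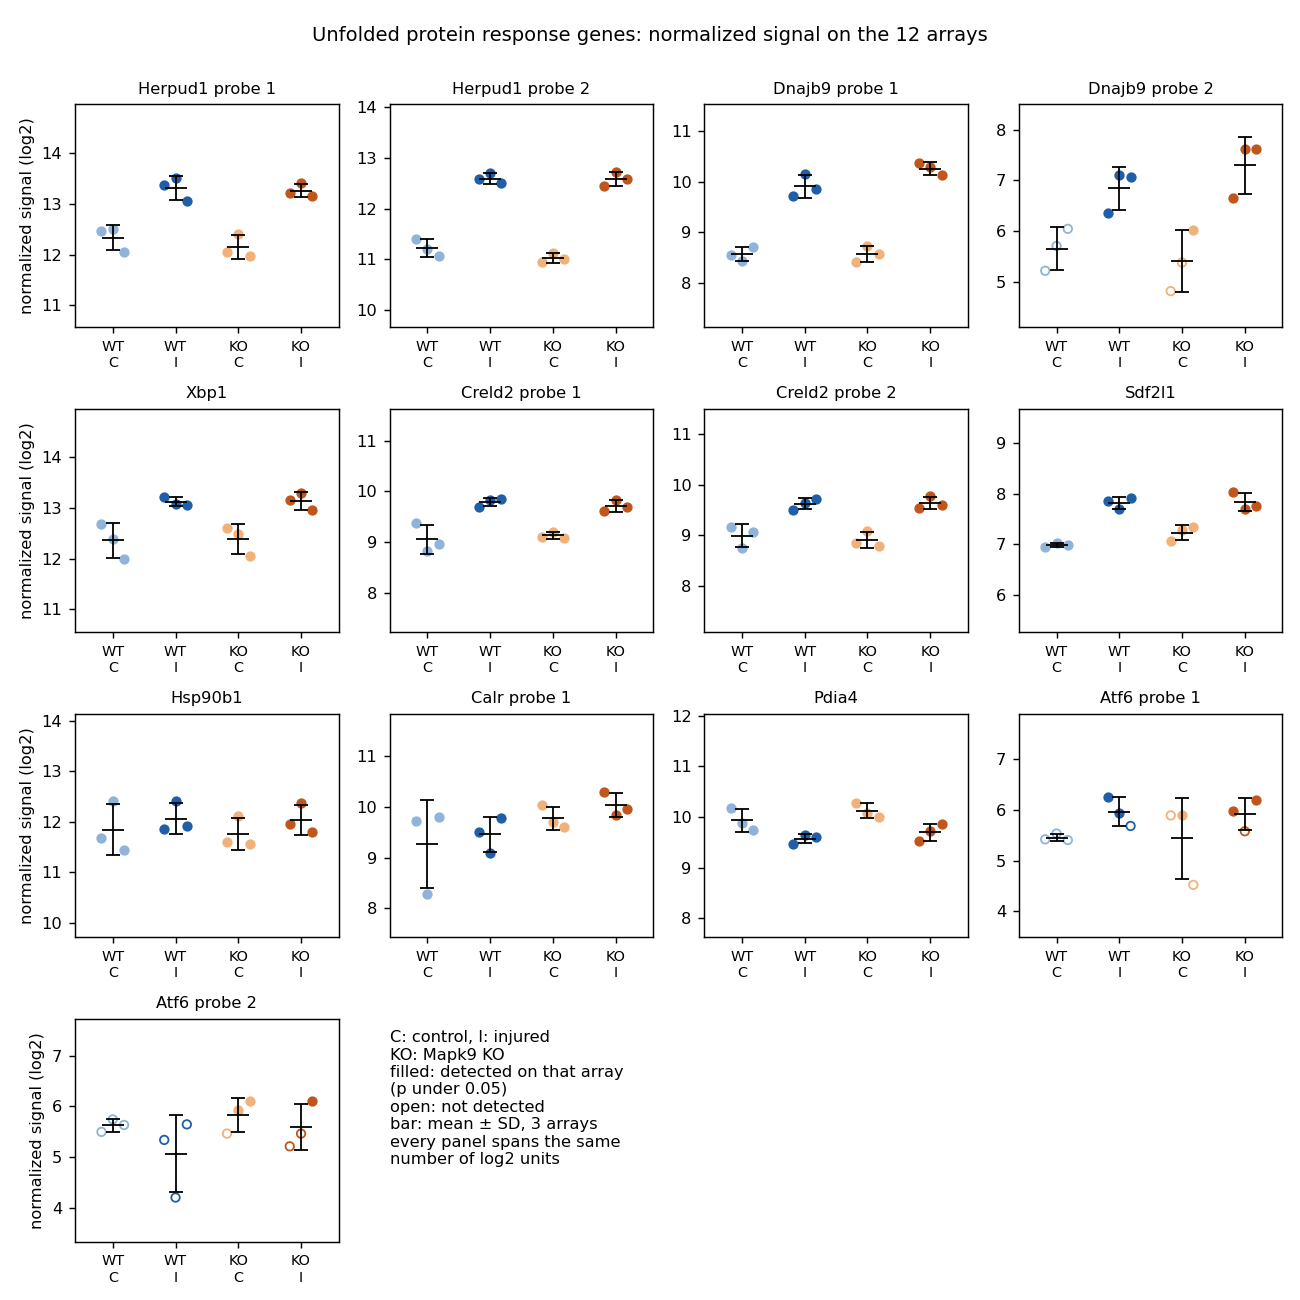
Normalized log2 signal (vertical axis) of the 13 probes on each of the 12 arrays, in panels that span the same number of log2 units. Points are arrays, filled where the probe was detected, and bars are the mean ± SD of 3 arrays. For Herpud1, Dnajb9, Xbp1, Creld2 and Sdf2l1 every injured array lies above every control array of its genotype, while the groups of Hsp90b1 and Calr overlap. Over all probes the groups are apart, in either direction, at 41.2% in WT and at 49.7% in Mapk9 KO.

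Herpud1 encodes an ER membrane protein that takes part in the removal of misfolded proteins by ER-associated degradation. Its probe 2, the dimmer, read 11.41, 11.21 and 11.06 on the WT control arrays and 12.58, 12.70 and 12.50 on the WT injured arrays. In Mapk9 KO the same probe went from 10.94, 11.13 and 11 to 12.46, 12.73 and 12.58. All injured arrays were above all control arrays, as they were, in either direction, at 41.2% of all probes in WT and at 49.7% in Mapk9 KO. The log2 change was 1.37 in WT (standard error 0.20, 2.58-fold, limma adjusted p = 0.000824) and 1.57 in Mapk9 KO (standard error 0.17, 2.96-fold, limma adjusted p = 4.26e-05). The brighter probe 1 averaged 12.34 ± 0.26 (SD, n = 3) in WT control and 13.32 ± 0.23 (SD, n = 3) in WT injured hips. Its change was just below the 2-fold limit in WT, at 0.98 (standard error 0.22, limma adjusted p = 0.00943), and above it in Mapk9 KO, at 1.12 (standard error 0.19, limma adjusted p = 0.000784). In WT it stood between 0.73 and 1.11 over the alternatives, above 2-fold with array medians subtracted and without replicate 1 or 2 of the WT control or replicate 3 of the WT injured arrays, and its adjusted p was 0.0594 by the methods' t-test. Both probes gave the same direction, and in all 6 pairs of arrays with the same replicate number and genotype the injured array was higher at both.

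Dnajb9 encodes ERdj4, a co-chaperone of the HSP70 chaperone of the ER. Its probe 1, detected on all 12 arrays, read 8.56, 8.45 and 8.72 in WT control and 9.72, 10.16 and 9.85 in WT injured hips. In Mapk9 KO it read 8.41, 8.74 and 8.57 before and 10.37, 10.29 and 10.13 post injury. The ranges were apart by about a whole log2 unit or more in both genotypes. The changes were 1.34 in WT (standard error 0.20, 2.52-fold, limma adjusted p = 0.00125) and 1.69 in Mapk9 KO (standard error 0.17, 3.22-fold, limma adjusted p = 3.09e-05). The dim probe 2 was detected on no WT control array, on 1 of 3 Mapk9 KO control arrays and on all 6 injured arrays. In WT it averaged 5.65 ± 0.42 (SD, n = 3) in control and 6.84 ± 0.43 (SD, n = 3) in injured hips, at least 1.99-fold higher post injury (limma adjusted p = 0.0122). That bound sets the injured mean against the lowest signal of a detected probe on each control array, or the probe's own value where higher. The adjusted p was 0.0516 without WT control replicate 1 and 0.0523 without WT injured replicate 2, and 0.109 by the methods' t-test. In Mapk9 KO probe 2 was also higher post injury (limma adjusted p = 0.00119, and 0.0566 by the methods' t-test). Its difference there of 1.89 on the log2 scale (standard error 0.33) was taken against control values of which 1 of 3 was detected. With each control value raised to the lowest signal of a detected probe on its array, a setting chosen after seeing the data, it was 1.33. After quantile normalization without background correction the differences of probe 2 were 0.52 in WT and 0.82 in Mapk9 KO, both below 2-fold.

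Xbp1 encodes the transcription factor that IRE1 activates by splicing, and its single probe gives the level of the message and not its splicing. It read 12.68, 12.40 and 12 in WT control and 13.22, 13.09 and 13.06 in WT injured hips. In Mapk9 KO it read 12.61, 12.49 and 12.05 in control and 13.15, 13.30 and 12.95 in injured hips. The control arrays spread more widely than the injured ones in both genotypes. The groups did not overlap, as at 41.2% of all probes in WT and at 49.7% in Mapk9 KO. The change was 0.76 in WT (standard error 0.22, 1.70-fold, limma adjusted p = 0.0294) and 0.75 in Mapk9 KO (standard error 0.20, 1.68-fold, limma adjusted p = 0.0124). In WT the adjusted p was 0.051 after normexp and quantile normalization, and between 0.0716 and 0.0922 when WT control replicate 3 or any 1 of the 3 WT injured arrays was left out. By the methods' t-test the adjusted p was 0.0937 in WT and 0.0619 in Mapk9 KO. With the replicate number as a block the limma adjusted p was 0.0215 in WT and 0.00634 in Mapk9 KO.

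Creld2 encodes a small secreted ER protein with disulfide-rich domains, and its window holds an ERSE, shown above. It has 2 measured probes of 50 bases that follow each other on the transcript, and the 7 bases they share are in capitals below. They read neighbouring stretches of one message and are not separate samples of it.
Creld2 probe 1: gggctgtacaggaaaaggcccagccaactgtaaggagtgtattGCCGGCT
Creld2 probe 2: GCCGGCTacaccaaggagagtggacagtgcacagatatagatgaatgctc

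Probe 1 of Creld2 read 9.37, 8.82 and 8.97 in WT control and 9.70, 9.82 and 9.86 in WT injured hips, and in Mapk9 KO 9.11, 9.21 and 9.08 before and 9.61, 9.84 and 9.69 post injury. The groups were apart in both genotypes, more clearly in Mapk9 KO, where the control arrays spanned little. Over all probes they were apart at 41.2% in WT and at 49.7% in Mapk9 KO. Its change was 0.74 in WT (standard error 0.21, limma adjusted p = 0.0277) and 0.58 in Mapk9 KO (standard error 0.17, limma adjusted p = 0.0174). Probe 2 changed by 0.63 in WT (standard error 0.20, limma adjusted p = 0.0453) and by 0.73 in Mapk9 KO (standard error 0.17, limma adjusted p = 0.00665). In WT these calls were thin. Probe 2 failed the adjusted p without any 1 of the 6 WT arrays (0.0569 to 0.148), and probe 1 without any of them but WT control replicate 1 (0.0583 to 0.0944). By the methods' t-test neither probe passed in WT, with adjusted p values of 0.0748 and 0.0722. With the replicate number as a block both passed there (limma adjusted p = 0.0318 for probe 1 and 0.0431 for probe 2). In Mapk9 KO probe 1 failed without control replicate 1 (0.0507) or injured replicate 2 (0.0611), and probe 2 passed without any 1 array.

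Sdf2l1 encodes an ER resident partner of the ERdj3 co-chaperone. It read 6.95, 7.03 and 6.99 in WT control and 7.85, 7.69 and 7.92 in WT injured hips, so that the control arrays lay close together and well below the injured ones. In Mapk9 KO the values were 7.07, 7.28 and 7.35 in control and 8.03, 7.70 and 7.76 in injured hips, again without overlap. Groups without overlap were found at 41.2% of all probes in WT and at 49.7% in Mapk9 KO. The change was 0.83 in WT (standard error 0.19, 1.78-fold, limma adjusted p = 0.00923) and 0.60 in Mapk9 KO (standard error 0.18, 1.51-fold, limma adjusted p = 0.0219). The WT call passed the adjusted p under all 15 alternatives run. The Mapk9 KO call did not pass without control replicate 1 (0.0804) or injured replicate 1 (0.0941).

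Neither Hsp90b1 nor Calr passed the test. Hsp90b1 encodes GRP94, the HSP90 family chaperone of the ER, and its window holds 2 exact ERSE matches. Its probe read 11.68, 12.42 and 11.44 in WT control and 11.86, 12.41 and 11.92 in WT injured hips, and 11.59, 12.12 and 11.56 in Mapk9 KO control and 11.95, 12.37 and 11.80 in Mapk9 KO injured hips. In each of the 4 groups the array of replicate 2 was the brightest, and control and injured arrays overlapped. Within pairs of the same replicate number the injured array was higher by 0.36, 0.25 and 0.24 in Mapk9 KO, while the WT differences were 0.18, -0.01 and 0.48. The change was 0.22 in WT (95% interval -0.41 to 0.84, limma adjusted p = 0.619) and 0.28 in Mapk9 KO (95% interval -0.21 to 0.77, limma adjusted p = 0.351). With the replicate number as a block the intervals were -0.21 to 0.65 in WT (limma adjusted p = 0.406) and -0.04 to 0.60 in Mapk9 KO (limma adjusted p = 0.133). All 4 intervals include 0.

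Calr encodes calreticulin, the lectin chaperone that binds calcium in the ER. Its measured probe read 9.73, 8.28 and 9.80 in WT control and 9.51, 9.09 and 9.78 in WT injured hips. The array of WT control replicate 2 was the lowest of all 12. In Mapk9 KO the probe read 10.03, 9.69 and 9.60 before and 10.30, 9.85 and 9.96 post injury, and the groups overlapped. Within pairs the differences were 0.27, 0.15 and 0.36 in Mapk9 KO and -0.23, 0.81 and -0.02 in WT. The change was 0.19 in WT (95% interval -0.66 to 1.03, limma adjusted p = 0.764) and 0.26 in Mapk9 KO (95% interval -0.17 to 0.70, limma adjusted p = 0.333), and with the replicate block the intervals were -0.37 to 0.75 (limma adjusted p = 0.586) and -0.07 to 0.59 (limma adjusted p = 0.168). Without WT control replicate 2 the WT value turned to -0.31 (limma adjusted p = 0.404). The other Calr probe, outside the normalized table, was detected on no array.

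Pdia4 encodes the protein disulfide isomerase ERp72, and its signal was lower post injury without passing the test. The values were 10.19, 9.88 and 9.74 in WT control and 9.47, 9.64 and 9.61 in WT injured hips, and 10.28, 10.07 and 10 in Mapk9 KO control and 9.53, 9.72 and 9.86 in Mapk9 KO injured hips. Every injured array was below every control array of its genotype. Groups apart in either direction were found at 41.2% of all probes in WT and at 49.7% in Mapk9 KO. The change was -0.36 in WT (95% interval -0.81 to 0.09, limma adjusted p = 0.224) and -0.42 in Mapk9 KO (95% interval -0.81 to -0.03, limma adjusted p = 0.0867). After quantile normalization without background correction Pdia4 passed the adjusted p downward in WT (-0.38, limma adjusted p = 0.029) and in Mapk9 KO (limma adjusted p = 0.0248).

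Hspa5, which encodes BiP, the HSP70 chaperone of the ER and the usual reporter of this response, could not be followed on these arrays. Its single probe is outside the normalized table, with raw intensities between 108 and 189, and it was detected only on the array of Mapk9 KO injured replicate 3 with a detection p of 0.0385. A probe at background gives no level of the gene. Atf6, the gene of the membrane-bound sensor, was near the detection limit as well. Its probe 1 was detected on no WT control array, on 2 of 3 WT injured, 1 of 3 Mapk9 KO control and 2 of 3 Mapk9 KO injured arrays. In WT it averaged 5.45 ± 0.07 (SD, n = 3) in control and 5.96 ± 0.29 (SD, n = 3) in injured hips and did not pass (limma adjusted p = 0.106). No fold is given, since not all of the injured arrays detected it either. In Mapk9 KO its change was 0.48 (limma adjusted p = 0.3), no firm size, since 1 of 3 control arrays detected it. Probe 2 of Atf6 was detected on 3 of the 12 arrays, none of them WT. Its change in Mapk9 KO was -0.23 (limma adjusted p = 0.515), no firm size either, since 2 of 3 control and 1 of 3 injured arrays detected it.

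**Figure D3:**
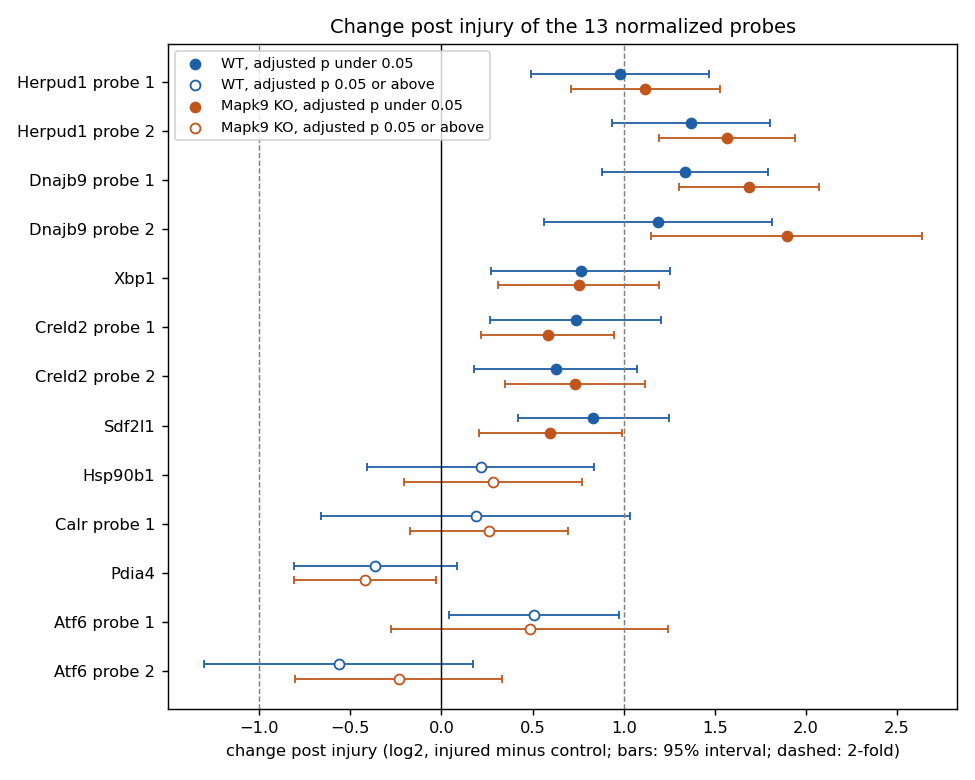
Change post injury of the 13 normalized probes (horizontal axis, log2, injured minus control) in WT and Mapk9 KO with 95% intervals, filled where the adjusted p was under 0.05 and with dashed lines at 2-fold. The 8 probes of Herpud1, Dnajb9, Xbp1, Creld2 and Sdf2l1 are filled in both genotypes, from 0.63 to 1.37 in WT and from 0.58 to 1.89 in Mapk9 KO.

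The Mapk9 KO arrays addressed whether loss of this kinase gene changes the response. None of the 13 measured probes, from 9 genes, passed the test between Mapk9 KO control and WT control hips, with differences between -0.25 and 0.51 on the log2 scale and a lowest limma adjusted p of 0.919, where 0.119% of all probes passed. At an unadjusted p under 0.05, and by the methods' t-test, the count was 0 as well. The difference between both injury changes was tested as an interaction over all 12 arrays. It was called at 0 of the 13 probes and at 0% of all probes by adjusted p, and at an unadjusted p under 0.05 at 0 of the 13 and at 9.94% of all probes. For Dnajb9 probe 1 the change in Mapk9 KO minus that in WT was 0.35 (95% interval -0.18 to 0.88, limma adjusted p = 0.671). Probe 2 of Dnajb9 gave no firm size for this difference, since 1 of the 6 control arrays detected it, and its estimate lay between 0.30 and 1.03 over the alternatives. For Herpud1 probe 2 the difference was 0.20 (95% interval -0.30 to 0.69), for Xbp1 -0.01 (95% interval -0.64 to 0.62) and for Sdf2l1 -0.23 (95% interval -0.73 to 0.26). Each of these interaction intervals includes 0, and differences within it are not excluded for that probe. With the replicate number as a block the interaction remained without a call at the 13 probes.

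Other genes of the response were taken from a list of 101 genes in 7 classes by role, of which 86 had a normalized value. The list was drawn up with earlier results of these data known. In WT, 12 of the 86 had a probe that was upregulated by both limits and 1 had a downregulated probe, beside 17.2% of all gene names called (8.66% up, 8.52% down). In Mapk9 KO, 14 were upregulated and 5 downregulated, beside 21.6% (10.9% up, 10.8% down). By adjusted p alone 17 rose and 5 fell in WT, beside 14.5% and 14.9% of all gene names, and 22 rose and 11 fell in Mapk9 KO, beside 21.1% and 22.6%. Most of the upregulated genes were in the class of transcription factors and the translation arm, in which 8 of 12 genes were upregulated in both genotypes. The median change of the brightest probes of this class was 1.90 in WT and 1.97 in Mapk9 KO, and -0.02 and -0.04 over all gene names. After quantile normalization without background correction 7 of the 12 were upregulated in WT and 8 in Mapk9 KO.

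Among these, Atf4, the factor whose translation PERK signalling favours, averaged 11.36 ± 0.12 (SD, n = 3) in WT control and 12.52 in WT injured hips at its brighter probe, a rise of 1.16 (standard error 0.21, limma adjusted p = 0.00349). In Mapk9 KO that probe rose by 1.06 (standard error 0.25, limma adjusted p = 0.00613). The dimmer probe rose by 1.23 in WT (standard error 0.23, limma adjusted p = 0.00411) and by 2.11 in Mapk9 KO (standard error 0.19, limma adjusted p = 1.07e-05). The interaction was 0.88 at the dimmer probe (95% interval 0.25 to 1.51, limma adjusted p = 0.361) and -0.10 at the brighter (95% interval -0.82 to 0.62, limma adjusted p = 0.949), so that the probes differed in this estimate and neither passed. The brighter probe was below the 2-fold limit in WT under both other normalizations of the intensities, at 0.96 and 0.94, and in Mapk9 KO after quantile normalization without background correction (0.99), without control replicate 1 (0.95) and without injured replicate 3 (0.83). By the methods' t-test the adjusted p was 0.0763 for the brighter probe in Mapk9 KO and 0.0533 for the dimmer in WT. Ddit3, which encodes CHOP, a factor tied to cell death under lasting ER stress, rose by 2.60 in WT (standard error 0.26, limma adjusted p = 0.000115) and by 2.63 in Mapk9 KO (standard error 0.17, limma adjusted p = 9.88e-07) at its brighter probe, and by 2.85 and 2.81 at the other, where quantile normalization without background correction gave 2.23 and 2.13. Atf3, which encodes a stress-induced repressor, was detected on no control array and on all injured arrays, and was at least 22.6-fold higher post injury in WT and at least 18.7-fold higher in Mapk9 KO on the scale of the deposited log2 values. These folds depend on the background correction, and after quantile normalization without it they were 9.42 and 9.27. Trib3, the gene of a pseudokinase induced by ATF4 and CHOP, rose at all 3 of its probes, by 3.47, 3.78 and 4.17 in WT and by 4.22, 4.54 and 4.81 in Mapk9 KO. After quantile normalization without background correction the rises were 1.86, 1.62 and 3.36 in WT and 2.07, 2.06 and 3.76 in Mapk9 KO. Chac1, the gene of an enzyme that degrades glutathione, rose by 3.64 in WT (limma adjusted p = 2.89e-06).

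Of the sensors, Ern1 rose at 1 of its 2 probes by 1.23 in WT (standard error 0.25, limma adjusted p = 0.00596) and by 1.44 in Mapk9 KO (standard error 0.27, limma adjusted p = 0.00168). By the methods' t-test its adjusted p was 0.0709 and 0.0525, and after quantile normalization without background correction it stayed below 2-fold. The other Ern1 probe rose by 1.00 in WT, just below 2-fold (limma adjusted p = 0.00832, and 0.0548 by the methods' t-test), and by 1.01 in Mapk9 KO (limma adjusted p = 0.0018). In Mapk9 KO it was below 2-fold under both other normalizations of the intensities (0.96 and 0.39) and without control replicate 2 (0.87) or injured replicate 1 (0.91). Eif2ak3 was detected on 3 of 12 arrays, none of them WT, so that no change can be given in WT. In Mapk9 KO it showed -0.28 (limma adjusted p = 0.356), which is no firm size, since 2 of 3 control and 1 of 3 injured arrays detected it. Of the 9 measured genes in the class of chaperones and co-chaperones 0 passed both limits in either genotype. By adjusted p alone 0 passed in WT by limma and by the methods' t-test, 4 passed an unadjusted p under 0.05, beside 42.5% of all gene names, and 1, Dnajc10, passed with the replicate block (-0.58, limma adjusted p = 0.0422), beside 34.2%. In Mapk9 KO Dnajc1 and Dnajc10, co-chaperone genes named after their values had been seen, fell by 0.73 and 0.82 (limma adjusted p = 0.0134 and 0.00971). By the methods' t-test neither passed there (adjusted p 0.061 and 0.0642), Dnajc1 did not pass without control replicate 2 (0.055) or injured replicate 1 (0.0602), and the other Dnajc10 probe showed -0.10 (limma adjusted p = 0.768). In the class of ER-associated degradation 0 of 16 genes passed both limits in WT, where 2 had a probe at an unadjusted p under 0.05 (42.5% of all gene names), and 1 passed in Mapk9 KO. This was Herpud2, a paralog of Herpud1, whose 4 probes showed 0.23, 0.26, 0.97 and 1.09 there and -0.54, -0.27, -0.19 and -0.07 in WT, where none passed (limma adjusted p from 0.154 to 0.922). Their interactions did not pass either (limma adjusted p from 0.382 to 0.687). In Mapk9 KO the last passed both limits (limma adjusted p = 0.00607), though not after quantile normalization without background correction (0.63), without control replicate 2 (0.88) or injured replicate 1 (0.93), or by the methods' t-test (adjusted p 0.0792), and the third was undetected in control hips and at least 1.81-fold higher (limma adjusted p = 0.00232). By adjusted p alone 1 gene of the class rose in WT, Ube2j1 (0.70, limma adjusted p = 0.0245, detected on 1 of 3 control arrays), and 4 rose in Mapk9 KO, beside the 14.5% and 21.1% of all gene names given above. The 4 were Herpud2, Edem1 (0.96, limma adjusted p = 0.0161), Man1b1 (0.55, limma adjusted p = 0.0248) and Edem2, undetected in Mapk9 KO control hips and at least 1.26-fold higher at 1 of its 3 probes (limma adjusted p = 0.0063), and 0 fell. The Edem2 probe showed -0.94 in WT (limma adjusted p = 0.137) and did not pass in Mapk9 KO with all 12 arrays in the fit (0.112), and the other Edem2 probes showed -0.27 and 0.18 in Mapk9 KO. Ube2j1 showed -0.20 in Mapk9 KO (limma adjusted p = 0.517) and did not pass in WT without any 1 array but WT control replicate 3 (0.0503 to 0.104). In WT, Edem1 showed 0.00 (limma adjusted p = 0.995) and Man1b1 0.38 (limma adjusted p = 0.208). In Mapk9 KO, Edem1 did not pass without injured replicate 1 or 3 (0.0617 and 0.065) or by the methods' t-test (0.124), and Man1b1 did not pass without control replicate 1 or 3 or injured replicate 1 or 2 (0.0527 to 0.0843). Ube2j1, Edem1, Edem2 and Man1b1, all genes of that degradation route, were named after their values had been seen.

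Protein translocation into the ER was represented by 15 measured genes. Sec63, which encodes a partner of the translocation channel, rose by 1.01 in WT (limma adjusted p = 0.00375) and by 1.02 in Mapk9 KO (limma adjusted p = 0.000681) at 1 of its 3 probes. Another was above 2-fold in WT only (1.04, limma adjusted p = 0.00538) and showed 0.98 in Mapk9 KO. The remaining probe showed 0.97 in WT and 0.98 in Mapk9 KO. Sec62, the gene of another such partner, was detected on 1 of 3 control arrays in each genotype and on all injured arrays. It was higher post injury in WT (1.09, limma adjusted p = 0.0045) and in Mapk9 KO (0.87, limma adjusted p = 0.00723, and 0.0579 by the methods' t-test), but with each control value raised to the lowest signal of a detected probe on its array, a setting chosen after seeing the data, the differences were 0.84 and 0.66, below 2-fold. After quantile normalization without background correction both stayed below 2-fold in both genotypes. The first Sec63 probe was also below 2-fold in WT after normexp and quantile normalization (0.95) and without control replicate 1 or 3 or injured replicate 2 (0.96 to 0.99), and in Mapk9 KO without control replicate 1 or injured replicate 2 or 3 (0.99 each). The other Sec63 probe above 2-fold in WT fell below that limit after normexp and quantile normalization (0.97) and without control replicate 3 (0.91) or injured replicate 2 (0.98). Sec62 was below it in WT without control replicate 2 (0.94). Stc2, which encodes the glycoprotein stanniocalcin 2, rose by 2.22 in WT (limma adjusted p = 0.0002) and by 2.58 in Mapk9 KO (limma adjusted p = 3.46e-06), there 1.95 after quantile normalization without background correction.

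The genes of the list that were downregulated were Fkbp7 in both genotypes and Creld1, Sdf4, Creb3l1 and Atp2a2 in Mapk9 KO. Creb3l1 and Atp2a2 were named after their values had been seen, as were Fkbp10, Fkbp11 and Ssr1, which with Fkbp7 and Sdf4 are the 5 that fell by adjusted p alone in WT. Fkbp10 and Fkbp11 did not pass there by the methods' t-test (adjusted p 0.0971 and 0.0615), and Ssr1 did not pass with array medians subtracted (0.0566). The other Ssr1 probe showed -0.17 in WT (limma adjusted p = 0.665), and the one that fell there showed 0.07 in Mapk9 KO (limma adjusted p = 0.809). Fkbp7, the gene of a proline isomerase of the ER, fell by 1.06 in WT (limma adjusted p = 0.0366) and did not pass without WT control replicate 1, 2 or 3 or WT injured replicate 1 or 2 (adjusted p 0.0534 to 0.106), nor by the methods' t-test (0.193). In Mapk9 KO it fell by 1.05 (limma adjusted p = 0.0254) and did not pass without control replicate 2 (0.107) or injured replicate 1 (0.0877), nor by the methods' t-test (0.173). There Creld1, the paralog of Creld2, fell by 1.56 (limma adjusted p = 8.84e-05) and Sdf4, the gene of a calcium-binding protein of the secretory pathway, by 1.37 (limma adjusted p = 0.000222). Creb3l1, the gene of a membrane-bound transcription factor, fell by 1.32 (limma adjusted p = 0.000307) and Atp2a2, the gene of a calcium pump that muscle also expresses strongly, by 1.20 (limma adjusted p = 0.000403). In WT the values were -0.96 for Creb3l1 (limma adjusted p = 0.142), -0.62 for Atp2a2 (limma adjusted p = 0.0581), -0.70 for Creld1 (limma adjusted p = 0.0633) and -0.85 for Sdf4 (limma adjusted p = 0.0194). For Sdf4 the WT adjusted p was 0.0819 by the methods' t-test and 0.0599 to 0.077 without control replicate 1 or injured replicate 1 or 3. Ero1b, which encodes an oxidase that feeds disulfide formation, rose by 1.25 in Mapk9 KO (limma adjusted p = 0.000244) and by 0.96 in WT (limma adjusted p = 0.00966, and 0.0574 by the methods' t-test). After quantile normalization without background correction the values in Mapk9 KO were below 2-fold for Sdf4 (-0.97), Creb3l1 (-0.82), Fkbp7 (-0.72) and Ero1b (0.81), and in WT for Fkbp7 (-0.74). By the interaction 0 of the 86 genes differed between genotypes (limma), 15 had a probe at an unadjusted p under 0.05, beside 13% of all gene names, and 1 passed with the replicate block, beside 0.722%. This was Srp54a, the gene of a signal recognition particle subunit, named after its value had been seen, with a difference of 1.42 (standard error 0.24, limma adjusted p = 0.0368).

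**Figure D4:**
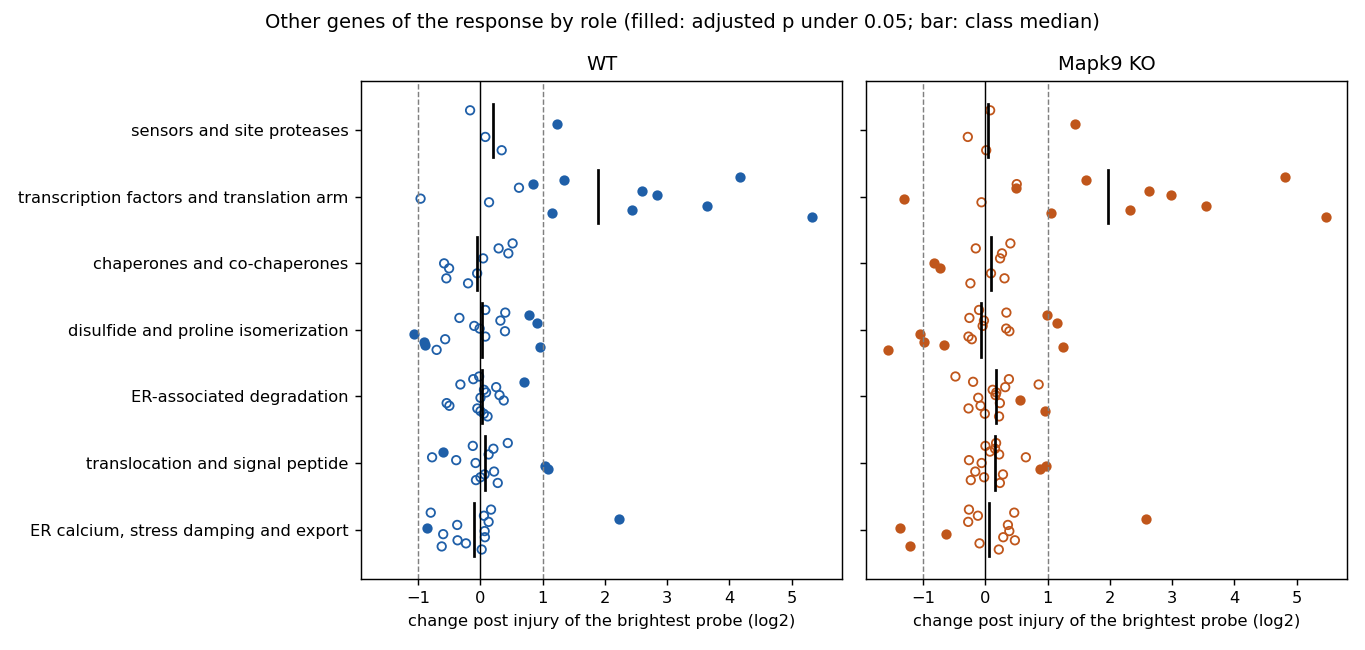
Change post injury (horizontal axis, log2) of the brightest probe of 86 other genes of the response, grouped by role, in WT (left) and Mapk9 KO (right), filled where the adjusted p was under 0.05 and with a bar at the class median. The median of the transcription factors and the translation arm is 1.90 in WT and 1.97 in Mapk9 KO, and the medians of the other classes lie between -0.10 and 0.21.

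The promoter element and the injury change were set side by side. An exact ERSE lay in windows of 37 gene symbols, of which 24 were on the array and 12 had a normalized value. Of these 12, 3 rose and 2 fell by adjusted p in WT, beside 14.5% and 14.9% of all gene names, and 4 rose and 2 fell in Mapk9 KO, beside 21.1% and 22.6%. Those that rose in both genotypes were Creld2, Ero1b and Pdia6, a disulfide isomerase gene with a change of 0.91 in WT (limma adjusted p = 0.00938) and 1.15 in Mapk9 KO (limma adjusted p = 0.00159). The other Pdia6 probe showed 0.69 (limma adjusted p = 0.0487) and 0.62 (limma adjusted p = 0.0397), neither of which passed by the methods' t-test. Spats2l rose by 1.08 in Mapk9 KO (limma adjusted p = 0.00633, and 0.0798 by the methods' t-test) and showed 0.53 in WT (limma adjusted p = 0.229), and Acacb and Adcy3 fell in both. Pdia6 and the other genes of this paragraph outside the lists were picked out after their values had been seen. Alg12, the gene of a mannosyltransferase, lies head to head with Creld2 and its window holds the same ERSE, and it showed 0.09 in WT (limma adjusted p = 0.815) and 0.16 in Mapk9 KO (limma adjusted p = 0.488). Of the 8 measured genes with an ERSE-II, 3 rose and 0 fell in WT and 4 rose and 0 fell in Mapk9 KO, with Herpud1, Rbm39 and Rcl1 in both and Lrif1 in Mapk9 KO.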

How the data were processed

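Total RNA of hip cartilage was measured on 12 Illumina arrays, 3 in each of 4 groups assigned from the sample labels. The authors deposited signal intensities without background correction, each with a detection p-value, for 45281 probes. The authors also deposited log2 values for 21004 probes, made by subtracting background estimated from the negative controls and by vsn normalization, whose version is not given in the sources used here. No probe outside that table was detected on more than 2 arrays. The number of arrays limits the precision.

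The 2 files were joined by probe. In the normalized table Hsp90b1 is named Tra1 and Pdia4 is named Cai, and symbols were updated through a RefSeq table of GRCm38.p6. Each probe was tested with limma 3.58.1 in R 4.3.3 (lmFit and eBayes) with Benjamini-Hochberg adjustment over all 21004 probes. The comparisons were within WT, within Mapk9 KO, between control groups, between injured groups, and as an interaction over 12 arrays. A call needed more than 2-fold change and adjusted p below 0.05, for the interaction the adjusted p alone. The lowest two-sided p that exact permutation allows with 3 and 3 arrays is 0.1. The scripts were tested on simulated data.

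The genes named are the 10 members, Mapk9, Ern1, Eif2ak3, Atf4, Ddit3, Acan, Col2a1 and Sox9, and per class of the wider list up to 3 called in WT and up to 2 called in Mapk9 KO, by smallest adjusted p. Members and lists were chosen with earlier results of these data known. A rule for genes resembling Hspa5 could not be applied, since its probe has no normalized value. The main fits did not pair the arrays, and the replicate number entered as a block in an alternative only. Deviations from group means correlated between 0.153 and 0.390 over 18 pairs of the same number, and between -0.289 and 0.0825 over 36 others. Such deviations cancel within a group, so the values of the others are not independent of those of the same number. Alternatives were a filter to probes detected on 3 or more arrays, subtraction of array medians, neqc (normexp and quantile, offset 16), quantile normalization of uncorrected intensities, the replicate number or the label code number as a block, the highest-mean probe per gene, all 12 arrays in the fit, the t-test that the methods name, other thresholds, and each array left out in turn. Promoter sequences are from RefSeq.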

Additional observations from a re-analysis of the deposited data

Results flagged for a closer look

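The only probe of Hspa5 on the array, which has no normalized value and enters no comparison, was detected on the array of Mapk9 KO injured replicate 3 with a detection p of 0.0385 and an intensity of 189. It is listed because a signal above the detection limit appeared outside the main measurement. On the other 11 arrays the detection p lay between 0.0609 and 0.740, and on the 6 control arrays the intensity was 108 to 166.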

How the results depend on the processing

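Member probes called numbered 3 in WT and 4 in Mapk9 KO, 1 and 2 with the highest-mean probe per gene (fewer probes tested) and 8 and 8 with no fold limit. With single arrays left out they numbered 2 to 4 and 4 to 4. Over all probes the WT count of 3086 became 1140 after quantile normalization without background correction, 1624 by the methods' t-test and 5319 with no fold limit, and 2788 to 3415 with arrays left out. The Mapk9 KO count of 3934 became 1756 after quantile normalization and 8045 with no fold limit, and 3905 to 4123 with arrays left out. Genes of the wider list called in WT were 13, and 22 with no fold limit (12 to 17 with arrays left out). In Mapk9 KO they were 19, 11 after quantile normalization and 33 with no fold limit (17 to 22). The replicate block raised the interaction calls over all probes from 0 to 112 and changed no call at a member probe. With arrays left out the interaction calls were 0 to 242, the highest without WT control replicate 3. Genotype calls in controls were 25, 13 after quantile normalization, 44 with all 12 arrays in the fit and 0 by the methods' t-test, and 17 to 412 with arrays left out, the highest again without WT control replicate 3. The causes were not tested. Interaction estimates near 0 changed sign: Xbp1 from -0.01 to 0.25 after either other normalization, and with arrays left out Xbp1 between -0.18 and 0.17, Hsp90b1 between -0.22 and 0.27, Pdia4 between -0.18 and 0.040, Calr probe 1 between -0.19 and 0.57, Atf6 probe 1 between -0.48 and 0.21 and Atf6 probe 2 between -0.10 and 0.62. In WT the injury change of Calr probe 1 lay between -0.31 and 0.45. At adjusted p alone, Herpud1 probe 2 and Dnajb9 probe 1 passed in both genotypes, and Sdf2l1 in WT, under all alternatives run. Low signal limits Dnajb9 probe 2, Atf6, Hspa5 and Sec62.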
